A study of Mus musculus with 6 samples.

Results

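Long intergenic noncoding RNAs (lincRNAs) are transcripts from loci between protein-coding genes that carry no long open reading frame. This account describes the ones that were expressed in mouse adult fibroblasts, the collagen-making cells of connective tissue, taken here from the ear and grown with or without radiation-induced senescence. A lincRNA was kept where its biotype in the gene table was lincRNA and its raw reads summed to at least 1000 over the 6 libraries, with H19 and Meg3 set aside. The set was thus selected on its read counts, and the levels below are given as a description. This left 106 RNAs of 2998 listed lincRNAs, of which 1727 had at least 1 read, in a table of 43346 genes.

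The libraries were RNA-seq of primary fibroblasts cultured at 3% oxygen, 3 from sham-irradiated control cells and 3 from senescent cells given 20 Gy of X-rays and kept for a further 21 days. All 6 cultures received 100 nM dexamethasone, a glucocorticoid that sets circadian clocks to a common phase, for 2 hours and were collected 12 hours later, so every value below belongs to that single time after synchronisation. The cells came from C57BL6/J animals that the study's methods give as adult females, and the labels do not say whether the 3 libraries of a group came from separate animals or cultures. If they did not, the p-values measure only the spread between these libraries. Transcripts of Y-linked genes were present in all 6 libraries, with 4228 to 17550 raw reads of Ddx3y, while Xist, the RNA that coats an inactive X chromosome in female cells, had 1 to 32. All 6 libraries thus held RNA of cells with a Y chromosome, at odds with the sex given in the methods.

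LincRNAs work in several ways. Some stay in the nucleus and organise bodies such as speckles and paraspeckles, some are long precursors from whose introns or exons small nucleolar RNAs (snoRNAs) or microRNAs are cut, some bind microRNAs in the cytoplasm, and others are transcribed from the same promoter region as a neighbouring protein-coding gene. Cellular senescence is a lasting arrest of division that follows, among other causes, DNA damage. It is accompanied by the cyclin-dependent kinase inhibitors p21 and p16 and by secretion of inflammatory and matrix proteins.

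Some sequences show what these RNAs carry. The first set is of promoter windows, 250 bases before to 50 after the RefSeq transcription start (build GRCm38.p6), for RNAs that stand at the ends of the ranking by change. 3300005D01Rik (chr17:5798407-5798706, plus strand) had the second largest rise, and its window holds both an AP-1 site (TGACTCA) and a CACGTG E-box, which are in capitals. AP-1 is the Fos and Jun family factor of stress and senescence programs, and the E-box is the element bound by BMAL1 with CLOCK. 1190002F15Rik, named Lockd in RefSeq (chr6:134928842-134929141, plus strand), had the largest fall, and Gm12603, named Wincr1 in RefSeq (chr4:89050057-89050356, plus strand), had the fourth largest rise. Neither of these windows holds either motif.
3300005D01Rik: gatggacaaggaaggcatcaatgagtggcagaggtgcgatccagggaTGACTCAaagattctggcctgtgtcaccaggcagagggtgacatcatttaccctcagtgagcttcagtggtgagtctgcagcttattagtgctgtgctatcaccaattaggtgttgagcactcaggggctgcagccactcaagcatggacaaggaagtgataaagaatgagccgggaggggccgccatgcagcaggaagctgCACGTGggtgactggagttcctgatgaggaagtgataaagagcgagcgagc
1190002F15Rik: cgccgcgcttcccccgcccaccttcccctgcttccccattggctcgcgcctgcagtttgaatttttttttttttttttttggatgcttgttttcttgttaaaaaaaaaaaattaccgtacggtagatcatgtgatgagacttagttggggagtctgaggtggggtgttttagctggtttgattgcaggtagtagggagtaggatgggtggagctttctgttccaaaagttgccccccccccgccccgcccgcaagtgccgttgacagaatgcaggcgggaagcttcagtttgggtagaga
Gm12603: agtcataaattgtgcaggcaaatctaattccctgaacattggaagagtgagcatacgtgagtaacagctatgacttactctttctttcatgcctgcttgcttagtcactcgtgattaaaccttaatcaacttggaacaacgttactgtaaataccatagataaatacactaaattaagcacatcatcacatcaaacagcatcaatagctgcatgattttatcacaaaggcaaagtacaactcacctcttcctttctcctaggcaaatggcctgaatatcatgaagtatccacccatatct

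RefSeq windows were matched by symbol, current name or synonym to 63 of the 106 RNAs, 68 windows in all. AP-1 sites (TGAGTCA or TGACTCA, which are each other's reverse complement) stood in 2 of the 68 windows (2.94%) and in 5.20% of all 32851 windows of the same length. The E-box CACGTG, its own reverse complement, stood in 5 windows (7.35%) and in 7.15% of all windows. With so few windows holding a motif, neither share is read as a difference from promoters at large. The window of 3300005D01Rik was the only member window with both, against 0.362% of all windows. The other matches are given with 10 bases on each side where the window allowed, with the motif in capitals: an AP-1 site in a second start of 1810058I24Rik (chr6:35256895-35256921, plus strand), and E-boxes of 1600020E01Rik (chr6:86527329-86527354, plus strand, in both of its overlapping windows), 9330104G04Rik (chr7:16874918-16874943, minus strand) and C030037D09Rik (chr11:88718393-88718413, plus strand). A match in letters is a description and not evidence of binding.
1810058I24Rik: tacagtttgaTGAGTCAcattcggact
1600020E01Rik: aaaatggcgaCACGTGtcgccatcga
9330104G04Rik: agactggatcCACGTGacagctccgc
C030037D09Rik: ccgcgCACGTGgggcggagtt

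The second set is of RNAs cut from, or bound by, members. Of the 5 lincRNA loci that enclose 2 or more microRNA hairpins, 3 are shown by their mature RNAs (RefSeq, GRCm38.p6), with the seed, bases 2 to 8, in capitals. A330023F24Rik (chr1) encloses miR-29b-2 and miR-29c, whose 3p products share a seed and are known to target collagen messages. 6720427I07Rik (chr13) encloses, in its GENCODE M21 model, 3 let-7 hairpins that share the seed GAGGUAG, of which 1, let-7d, lies within the span that was counted. Mir17hg (chr14) encloses the miR-17 to miR-92 cluster, in which miR-17 and miR-20a share a seed and miR-19a and miR-19b share another.
miR-29b-3p: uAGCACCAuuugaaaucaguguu
miR-29c-3p: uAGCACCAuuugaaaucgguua
let-7d-5p: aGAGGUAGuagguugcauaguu
let-7f-5p: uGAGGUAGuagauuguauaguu
let-7a-5p: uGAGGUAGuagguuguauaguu
miR-17-5p: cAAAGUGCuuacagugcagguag
miR-20a-5p: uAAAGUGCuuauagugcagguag
miR-18a-5p: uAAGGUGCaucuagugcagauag
miR-19a-3p: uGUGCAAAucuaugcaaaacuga
miR-19b-3p: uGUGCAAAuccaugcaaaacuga
miR-92a-3p: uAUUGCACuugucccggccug

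1700020I14Rik is Oip5os1 in RefSeq, the RNA known as Cyrano, which pairs with miR-7 over an unusually long stretch and brings about its decay. In its longest GENCODE transcript (8300 bases) a complement to the miR-7a-5p seed occurred at 2 places, and at one of them (bases 2930 to 2959) a further run of 13 bases complementary to the 3' part of the microRNA lay just upstream. Capitals mark the seed in the microRNA and, in the site, the seed match and that run.
miR-7a-5p: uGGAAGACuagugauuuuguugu
Cyrano site: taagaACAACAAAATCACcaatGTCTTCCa

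The level of each RNA is given as CPM, reads per 1000000 of the library total after scaling by trimmed mean of M-values (TMM), and its change as the log2 fold change of senescent over control cells with its standard error (SE) from edgeR's quasi-likelihood fit, adjusted by Benjamini-Hochberg over all 17589 genes tested. A call means an adjusted p under 0.05. Libraries held 50288454 to 82229553 gene-assigned reads. Control 1 and senescent 3 stood apart from the rest of their groups: their deviations from their group means over all genes correlated (Pearson's r = 0.50). Between senescent 3 and the other senescent libraries, the squared deviation of counts at the median gene was 12.7 and 16.3 times what sampling gives. Between senescent 1 and senescent 2 this ratio of squares was 2.14. Fibroblast markers summed to 59851 to 61484 CPM in control and 45785 to 50888 in senescent libraries. Most of that sum was Fn1 (45655 and 43858 CPM, not called), and of the 10 markers 4 were higher, led by Dpt and Dcn (log2 fold changes of 3.88 and 3.50), and 4 lower, led by Col1a1 (-2.54). Markers of keratinocytes, leukocytes, endothelium, skeletal muscle and Schwann cells or melanocytes each stayed under 30 CPM. Within that range these lists moved as well. Leukocyte markers were higher in senescent cells (5 of 5 tested, 5.69 to 6.46 against 13.98 to 16.5 CPM), as were those of endothelium (4 of 4 tested, 2.43 to 2.83 against 7.51 to 8.22 CPM). Keratinocyte markers summed to 2.70 to 3.45 CPM in control and 17.3 to 17.98 CPM in senescent libraries, with 1 of 3 tested higher, Ivl, which had no read in control libraries and 13.97 CPM in senescent ones. Schwann cell and melanocyte markers summed to 29.2 to 29.5 and 12.2 to 14.2 CPM (3 of 4 tested lower), and 2 of 3 tested muscle markers were higher. Chondrocyte markers summed to 4867 to 5426 CPM in control and 307 to 398 in senescent libraries, with 6 of 6 tested lower. No marker of these lists was at 0 in all libraries, and the part of these cell types in the results was not tested. In such bulk samples, fewer cells of a type and less RNA per cell cannot be told apart.

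Of the 106 RNAs, 38 were higher and 29 lower in senescent cells (63.2% called), and 39 did not pass the test. Over all genes tested 36.2% were higher and 34.1% lower (70.3% called), so the share of these RNAs that rose (35.8%) was near the background and the share that fell (27.4%) lay somewhat under it. At the threshold given in the study's methods, an unadjusted p under 0.05 with a log2 fold change beyond 1 in size, 18 were higher and 9 lower (background 17.8% and 12.3%, in all 30.1%). The 3 values of the groups did not overlap for 41 RNAs that were higher and 33 that were lower in senescent cells (background 38.4% and 37.0%, in all 75.3%). The median log2 fold change was 0.00, with quartiles of -0.33 and 0.45, beside 0.01 over all genes tested. In size, the median change was 0.365 on the log2 scale for these RNAs, 0.859 for the other 386 lincRNAs tested and 0.576 for all genes. Without control 1 and senescent 3 the calls were 38 higher and 38 lower (35.8% each), beside 40.7% higher and 38.8% lower over all genes of that fit.

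The count rule itself enters here. It used the sum of both groups, so an RNA that was low in control cells could be included because it was high in senescent cells: 23 of the 106 had under 500 reads in control and 3 under 500 in senescent libraries. Among the 80 RNAs with at least 500 reads in each group, 21 were higher and 26 lower (26.2% and 32.5%). Of all genes with as many reads in each group, 31.2% were higher and 40.6% lower. At the threshold of the study's methods 6 of these RNAs were higher, and the share of all such genes past it was not counted. All 106 passed the filter on low counts, and the smallest count of any of them in any library was 13. Just inside the limit lay Gm26705 with 1013 reads, 2810414N06Rik with 1005 and 4833412C05Rik with 1004, and just outside it 2610306M01Rik with 995, A430046D13Rik with 974 and B230217O12Rik with 952.

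**Figure D1:**
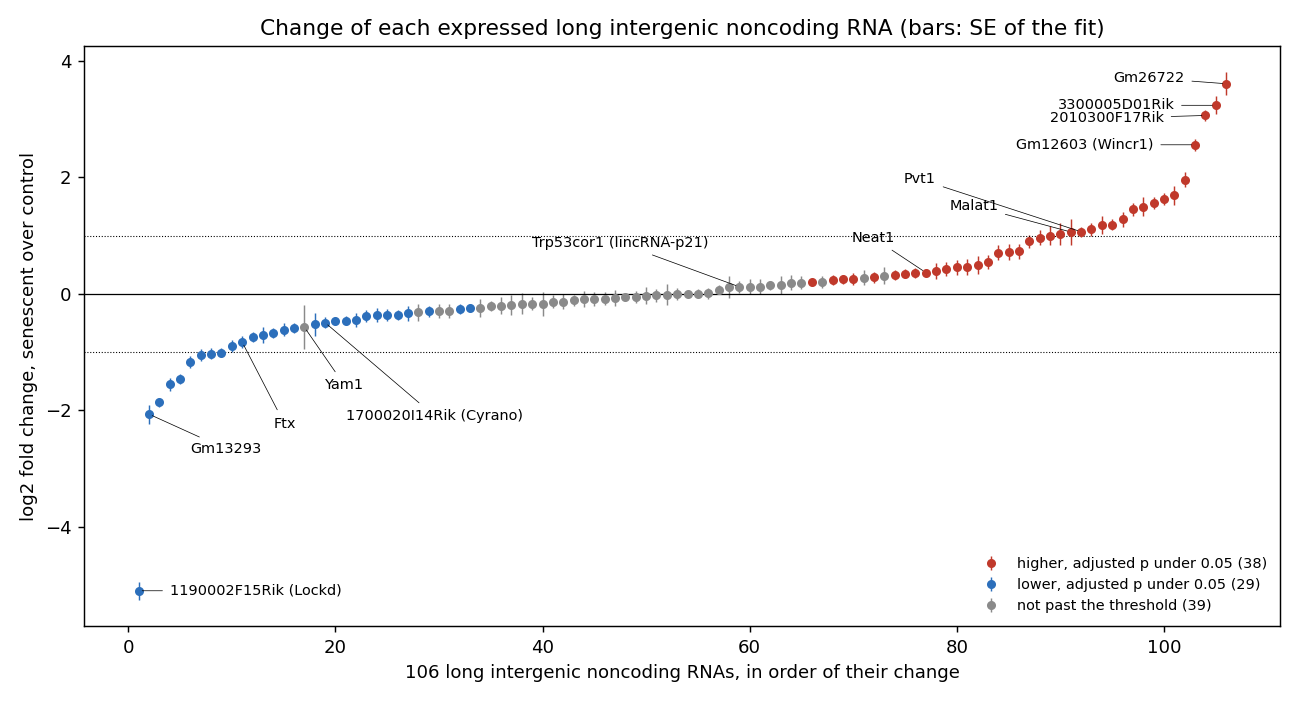
Log2 fold change, senescent over control, of the 106 long intergenic noncoding RNAs in order (y axis), with bars for the SE of the fit and dotted lines at 1 and -1. The points run from -5.09 (1190002F15Rik, Lockd) to 3.61 (Gm26722), 38 in red are higher, 29 in blue are lower and 39 in grey did not pass the test.

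A few RNAs made up most of the reads. Malat1, Neat1 and Yam1 together held 70.8% of all reads of the 106 RNAs, and Malat1 alone 41.9%. The 106 RNAs took 0.343% to 0.368% of the gene-assigned reads in control and 0.439% to 0.597% in senescent libraries. Without Malat1 the shares were 0.229% to 0.284% and 0.250% to 0.289%, which overlapped. By contrast, the median member had a level of 5.89 CPM among controls and one of 6.05 CPM after irradiation, and 72 and 70 members respectively were under 10 CPM. Per kilobase of exon, the order in control cells began with Yam1 (315 CPM per kb), Malat1 (161), Gm2115 (59.6), Snhg18 (40.0) and Neat1 (33.4), and in senescent cells Malat1 stood first (336) before Yam1 (212).

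**Figure D2:**
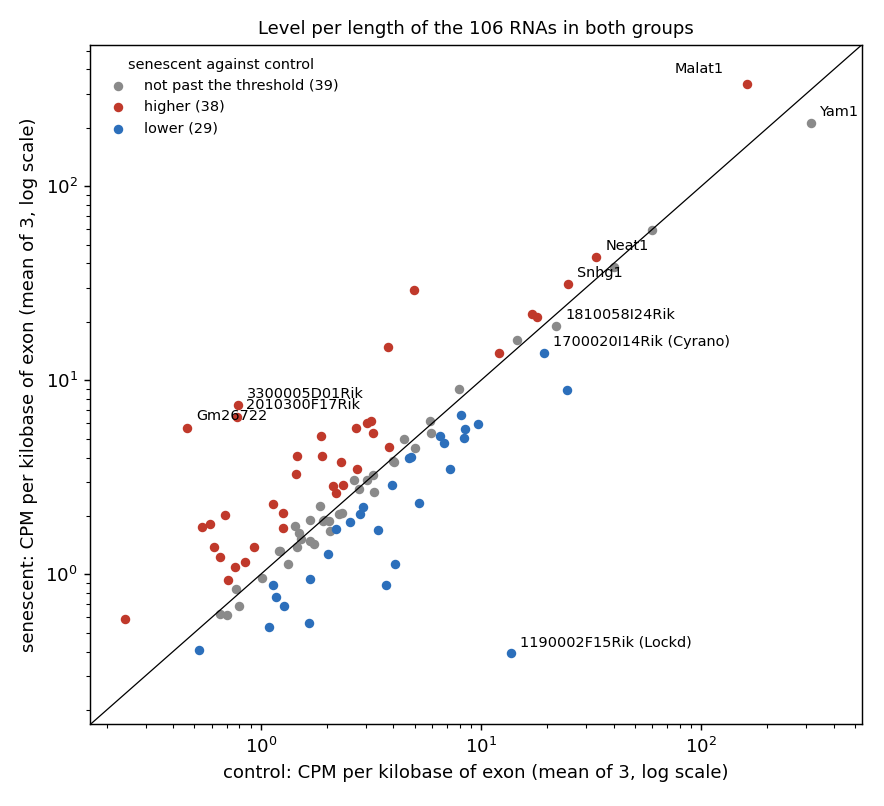
Mean level per kilobase of exon in control (x axis) and senescent cells (y axis), CPM per kb on log scales, 1 point for each of the 106 RNAs, with the line of equal levels. Malat1 and Yam1 stand at the upper end, 1190002F15Rik (Lockd) lies far under the line, and Gm26722, 3300005D01Rik and 2010300F17Rik lie above it at low control levels.

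Malat1, which resides in nuclear speckles near sites of splicing, measured 836, 1357 and 1174 CPM in the control libraries and 2190, 1844 and 3001 CPM in the senescent libraries. The groups did not overlap, and senescent 3, the highest of all, stood well above the other senescent libraries. The log2 fold change was 1.06 (SE 0.22, adjusted p = 0.00275). Without senescent 3 it was 0.85 with an adjusted p of 0.0583, and without both control 1 and senescent 3 it was 0.68 with an adjusted p of 0.0547, so the call rested on that library. Malat1 ends in a triple helix in place of a poly(A) tail, and these libraries were made from poly(A)-selected RNA, whose part in these values was not tested.

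Neat1, the RNA scaffold around which paraspeckles assemble, measured 673, 718 and 688 CPM in control and 901, 906 and 875 CPM in senescent libraries. These values separated cleanly, with a small spread in either group. The log2 fold change was 0.37 (SE 0.05, adjusted p = 0.000394), and it stayed between 0.34 and 0.44 with a call under every alternative run. The counts are per gene and from poly(A)-selected RNA, so they do not tell which of the 4 annotated Neat1 transcripts changed. The RNAs of genes for paraspeckle proteins moved the other way in number: of 16 listed genes, all tested, 1 was higher and 12 were lower. Over all genes tested 36.2% were higher and 34.1% lower. The median of the list was -0.45 on the log2 scale, beside 0.01 over all genes, and protein was not measured. Among the listed genes, those of the core partners, Nono and Sfpq, fell by 0.87 and 0.66 on the log2 scale, while Pspc1, their close relative, rose by 0.45.

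Yam1, named for its association with the factor YY1 in muscle cells, was listed at 917, 440 and 372 CPM in control and 307, 294 and 564 CPM in senescent libraries. The highest library of each group was control 1 and senescent 3, and the groups overlapped. Its log2 fold change was -0.57 (SE 0.38, adjusted p = 0.208). In GENCODE M21 this gene (there Gm42418) shares 99.5% of its exon bases with a ribosomal RNA gene on the opposite strand. In RefSeq, Yam1 is matched to Rn18s-rs5, a name for a ribosomal RNA related sequence. No source states whether counting used strand, so reads of the overlapping pair may not be separable.

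Of the next most abundant RNAs, Snhg1 rose by 0.33 on the log2 scale and is given with the snoRNA hosts. Cyrano (1700020I14Rik), whose miR-7 site is shown above, measured 166, 160 and 157 CPM in control and 105, 105 and 133 CPM in senescent libraries. All senescent values lay under all control values, and the fall was 0.49 on the log2 scale (SE 0.10, adjusted p = 0.00219). Gm2115 stood at 110 ± 2.47 CPM (SD, n = 3) in control and 110 ± 1.27 in senescent cells (log2 fold change 0.00, adjusted p = 0.936), the third highest level per length in control cells. 1810058I24Rik stood at 61.1 ± 2.03 and 52.8 ± 5.72 CPM without overlap, but its adjusted p was 0.0551. It passed the test in 4 of the 13 alternatives. Gm2115 itself, Fam169b and AI854703 are annotated as protein-coding in GENCODE M21, where 97 of the 106 identifiers were found and 74 were still lincRNA.

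**Figure D3:**
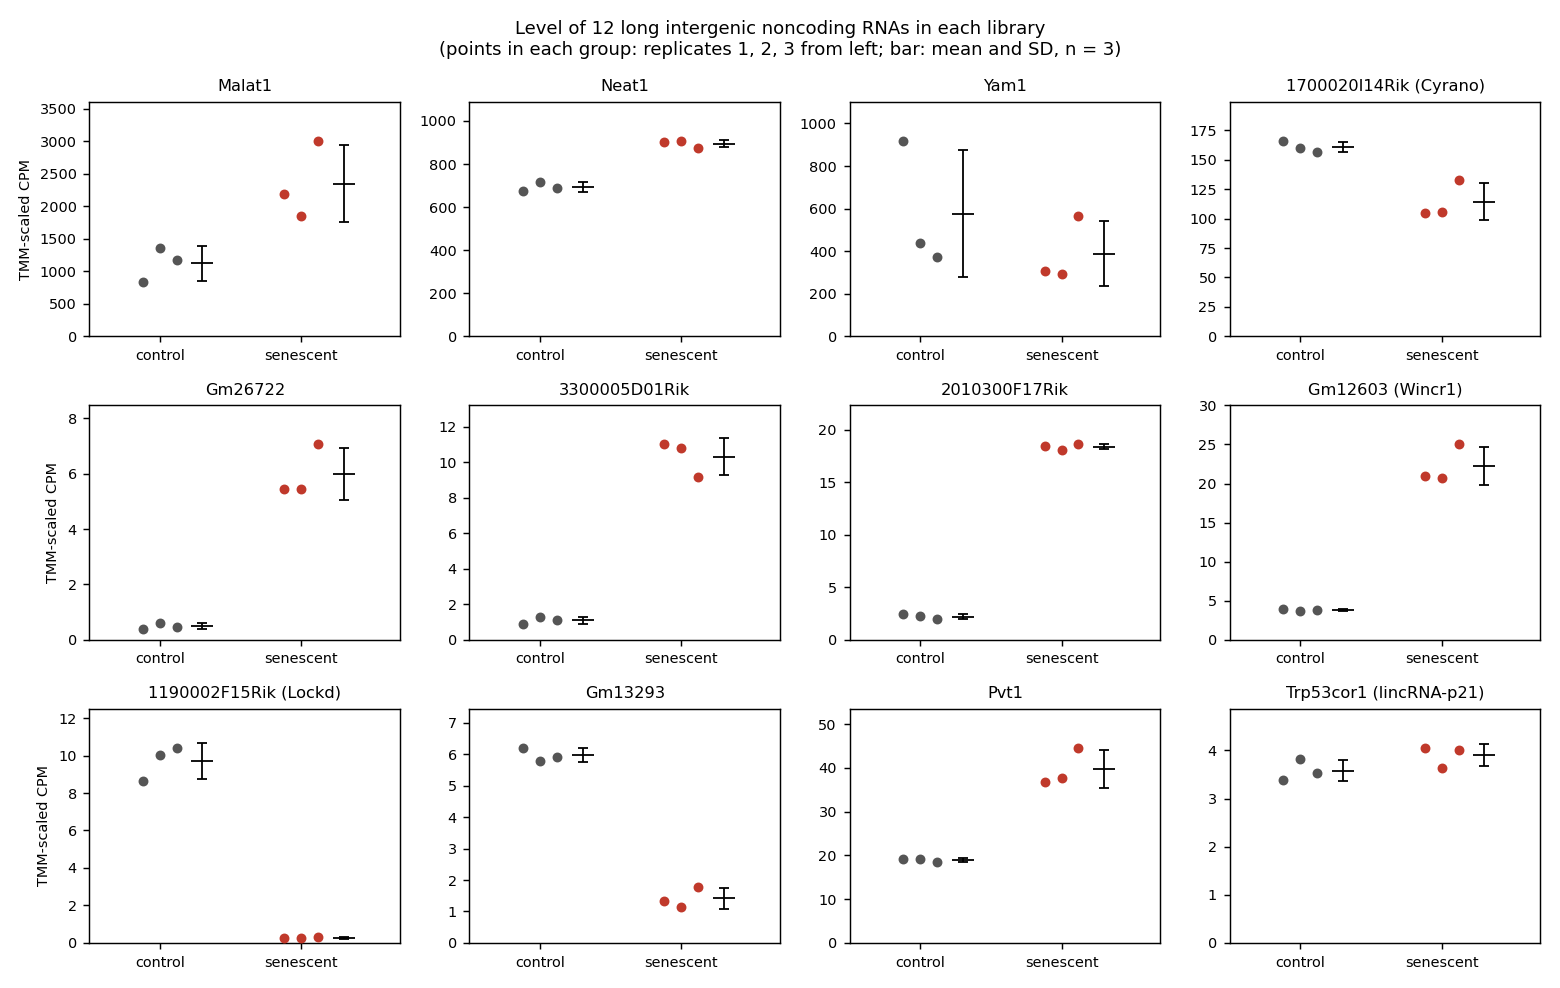
TMM-scaled CPM of 12 RNAs in each library (points, replicates 1 to 3 from the left in each group), with the mean and SD (n = 3) beside them; every y axis starts at 0. Malat1 and Yam1 show the widest spread, with control 1 or senescent 3 at an extreme, whereas Gm26722, 3300005D01Rik, 2010300F17Rik, Gm12603 and 1190002F15Rik show groups that lie far apart.

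The largest rise belonged to Gm26722 (chr4:129309081-129318443). It had 19, 36 and 23 reads in control and 301, 431 and 596 in senescent libraries, which is 0.484 ± 0.111 CPM (SD, n = 3) against 5.98 ± 0.939 CPM. Every senescent library exceeded every control library by a wide margin, and the log2 fold change was 3.61 (SE 0.20, adjusted p = 1.8e-06). Its exons share 76.0% of their bases with Rbbp4, a histone chaperone gene on the opposite strand, which went in the other direction (243.7 to 157.7 CPM, log2 fold change -0.63, adjusted p = 0.000176). The nearest protein-coding start, 21464 bases away, was that of Sync, an intermediate filament protein of muscle, which rose by 2.82 on the log2 scale. Sync (chr4:129287617-129308559) lies on the same strand and ends just before Gm26722 begins. Whether the rise of Gm26722 is separate from that of Sync was not tested. Gm26722 and the next 2 RNAs each had under 500 reads in control libraries, so their place in the set depended on their senescent level.

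3300005D01Rik (chr17:5798657-5803240), whose promoter window with both motifs is shown above, measured 0.862, 1.27 and 1.12 CPM in control and 11.0, 10.8 and 9.15 CPM in senescent libraries. The rise was 9.43-fold (log2 fold change 3.24, SE 0.15, adjusted p = 8.6e-07). The nearest coding start, at 42672 bases, was that of Snx9, a sorting nexin of endocytosis, which rose by 1.17. 2010300F17Rik (chr11:96712982-96747436) measured 2.43, 2.21 and 1.96 CPM in control and 18.5, 18.1 and 18.6 CPM in senescent libraries. Its senescent values were nearly equal to each other, and it rose 8.35-fold (log2 fold change 3.06, SE 0.10, adjusted p = 1.1e-07), with Snx11, another sorting nexin, 30123 bases away and higher by 0.74. 2010300F17Rik lies within the span of Skap1, a gene on the opposite strand, and shares 6.57% of its exon bases with it. Skap1 rose by 1.49 on the log2 scale, from 0.173 to 0.482 CPM.

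Gm12603 (Wincr1, an RNA named for its induction by Wnt signalling) lies on chromosome 4 with Mtap, the gene of methionine salvage, as its nearest coding start at 86814 bases. It measured 3.87, 3.70 and 3.74 CPM in control and 20.9, 20.7 and 25.01 CPM in senescent libraries. The control values were almost the same in all libraries, and the RNA rose 5.89-fold (log2 fold change 2.56, SE 0.10, adjusted p = 3.73e-07), while Mtap rose by 1.05 on the log2 scale. Gm6634 rose by 1.96 (6.86 ± 0.0768 to 26.6 ± 4.45 CPM), and its nearest coding start, that of Otol1, lay 799678 bases away in a gene too low to test.

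The remaining large rises were of RNAs at a few CPM. Mir143hg (Carmn, known from smooth muscle and heart) rose by 1.69 on the log2 scale, 2810032G03Rik by 1.62, Gm26572 by 1.55 and 4833412C05Rik, just inside the count limit, by 1.49. Their largest adjusted p was 9.15e-05, and none had a senescent library under 3.32 or a control library above 2.39 CPM. Each of these RNAs had under 500 reads in control libraries, so its place in the set depended on its senescent level. Pvt1, a long locus next to the proto-oncogene Myc, was better expressed: 19.2, 19.1 and 18.5 CPM in control and 36.7, 37.6 and 44.6 CPM in senescent libraries. It rose by 1.07 (SE 0.09, adjusted p = 1.9e-05), and Myc, 52595 bases away, by 0.78 (adjusted p = 0.00044).

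The largest fall was that of 1190002F15Rik (Lockd), which starts 8691 bases from the start of Cdkn1b on the same strand. It measured 8.62, 10.0 and 10.4 CPM in control and 0.235, 0.265 and 0.332 CPM in senescent libraries, where it had 13, 21 and 28 reads. It was 34.2-fold lower (log2 fold change -5.09, SE 0.16, adjusted p = 9.29e-08), and stayed between -5.32 and -5.01 under every alternative run. Cdkn1b, which encodes the cell cycle inhibitor p27, also fell, from 110.2 to 32.3 CPM (log2 fold change -1.77, adjusted p = 2.13e-06). Because Lockd lay under 500 reads in senescent cells, its place in the set depended on its control level.

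Gm13293 (chr2:11339488-11344111) fell from 5.97 ± 0.22 to 1.42 ± 0.332 CPM (log2 fold change -2.06, SE 0.16, adjusted p = 1.43e-05), and 4933404O12Rik from 16.7 ± 0.34 to 4.62 ± 0.169 CPM (log2 fold change -1.86, SE 0.08, adjusted p = 3.75e-07). The nearest coding start to the latter was that of Ift22, a ciliary transport gene, whose log2 fold change was -0.22 (adjusted p = 0.111). 9530082P21Rik fell by 1.55 on the log2 scale beside Paqr4, which fell by 2.29, and Gm28875 by 1.46 with Clmn, 61613 bases off, lower by 2.02. The falls of 2610035D17Rik (1.17 on the log2 scale), 5330426P16Rik (Dubr, known from muscle differentiation, 1.05) and 2410018L13Rik (1.02) were 2.04- to 2.26-fold. Gm13293 and 2410018L13Rik each had under 500 reads in senescent libraries, so their place in the set depended on their control level. For 2610035D17Rik the nearest coding start lay 417504 bases away and belonged to Sstr2, a somatostatin receptor that rose by 4.35 from a level of 0.0501 CPM. On the other side of the RNA, Sox9 (chr11:112782224-112787760) fell by 2.08 on the log2 scale, from 215 to 50.9 CPM.

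Of the listed lincRNAs tied to p53 and DNA damage, Trp53cor1 and Pvt1 were in the set. Trp53cor1 (lincRNA-p21), a p53 target upstream of Cdkn1a, measured 3.39, 3.82 and 3.54 CPM in control and 4.06, 3.63 and 4.02 CPM in senescent libraries. The groups overlapped, and its log2 fold change of 0.12 (SE 0.10, adjusted p = 0.31) did not pass the test under any alternative run. Its exons share 44.1% of their bases with another lincRNA on the opposite strand. Cdkn1a, the p21 gene whose start lies 11797 bases away, rose from 123.2 to 619.5 CPM (log2 fold change 2.33, adjusted p = 2.54e-08), and Mdm2, another p53 target, by 1.92. Pvt1 rose as given above, and Tug1, which is no member, had a log2 fold change of 0.10 and was not called.

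snoRNA hosts are RNAs whose introns release the guides of ribosomal RNA modification. Of the list's 12 hosts in the table, all tested, 5 were higher and 1 was lower (median 0.06 on the log2 scale). Over all genes tested 36.2% were higher and 34.1% lower. Of these 12 hosts, 5 are members by their table names. Snhg6 (host of Snord87) rose by 0.36 (adjusted p = 0.00529), Snhg1 by 0.33 (adjusted p = 0.00877) and Snhg12, which encloses Snora16a, Snora44, Snora61 and Snord99, by 0.25 (adjusted p = 0.0251). Snhg12 lost its call in 5 of the 13 alternatives, and these 3 rises were all smaller than 1.3-fold. Snhg7 (log2 fold change 0.08) and Snhg18 (-0.06) did not pass the test, and neither did Epb41l4aos, listed as 2410004N09Rik (0.19). 2 further members that enclose a snoRNA, 2700038G22Rik with Snord93 and 9430037G07Rik with Gm23017, had log2 fold changes of -0.05 and -0.21 and were not called. The genes for snoRNP proteins, which bind these guides, were higher in 12 and lower in 2 of 19 tested (median 0.39), with Nop58 higher by 0.85 and Nop56 by 0.73.

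The microRNA hosts differed among themselves, and of 10 listed hosts tested 5 were higher and 4 lower (36.2% and 34.1% over all genes tested). A330023F24Rik, which encloses miR-29b-2 and miR-29c, measured 2.15, 2.23 and 2.39 CPM in control and 5.67, 4.68 and 6.10 CPM in senescent libraries, without overlap. It had under 500 reads in control libraries, so its place in the set depended on its senescent level. It rose by 1.28 on the log2 scale (SE 0.13, adjusted p = 5.78e-05), and its nearest coding start was that of Cd34, 37556 bases away and higher by 0.98. In contrast, the let-7 locus 6720427I07Rik (9.23 ± 0.329 and 8.71 ± 1.21 CPM, log2 fold change -0.08) and Mir17hg (5.19 ± 0.228 and 4.86 ± 0.743 CPM, log2 fold change -0.09) overlapped between the groups, with senescent 3 the highest library in each. Snhg20 (2810008D09Rik, which encloses miR-6516) and 2900076A07Rik (miR-1839) had rises of 0.26 and 0.24 on the log2 scale, and mmu-mir-5103 fell by 0.26. The calls of these 3 were lost in 7, 7 and 5 of the 13 alternatives. These values are of the long host RNAs, and mature microRNAs were not measured.

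Mirg and Ftx fell. Mirg, from the imprinted Dlk1-Dio3 domain where it encloses 14 microRNA hairpins, measured 19.6, 20.3 and 21.99 CPM in control and 14.9, 14.7 and 15.1 CPM in senescent libraries (log2 fold change -0.47, SE 0.07, adjusted p = 0.000671). The senescent values were tightly grouped and all lower. Rian, the snoRNA host of the same domain, fell by 0.65 (adjusted p = 0.000406). Ftx, a noncoding gene of the X-inactivation centre that encloses miR-421 and miR-374b, measured 13.4, 12.2 and 12.6 CPM in control and 7.51, 6.18 and 7.88 CPM in senescent libraries, a fall of 0.83 (SE 0.11, adjusted p = 0.000251). On the Y chromosome, Gm29650 had 210 to 383 reads in every library and a log2 fold change of -0.13 (adjusted p = 0.331). Among the 16 tested genes of microRNA processing, 3 were higher and 10 lower (median -0.42), beside 36.2% and 34.1% over all genes tested. Dicer1 fell by 0.30 and Ago2 rose by 0.53, while Drosha was not called (log2 fold change -0.04).

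**Figure D4:**
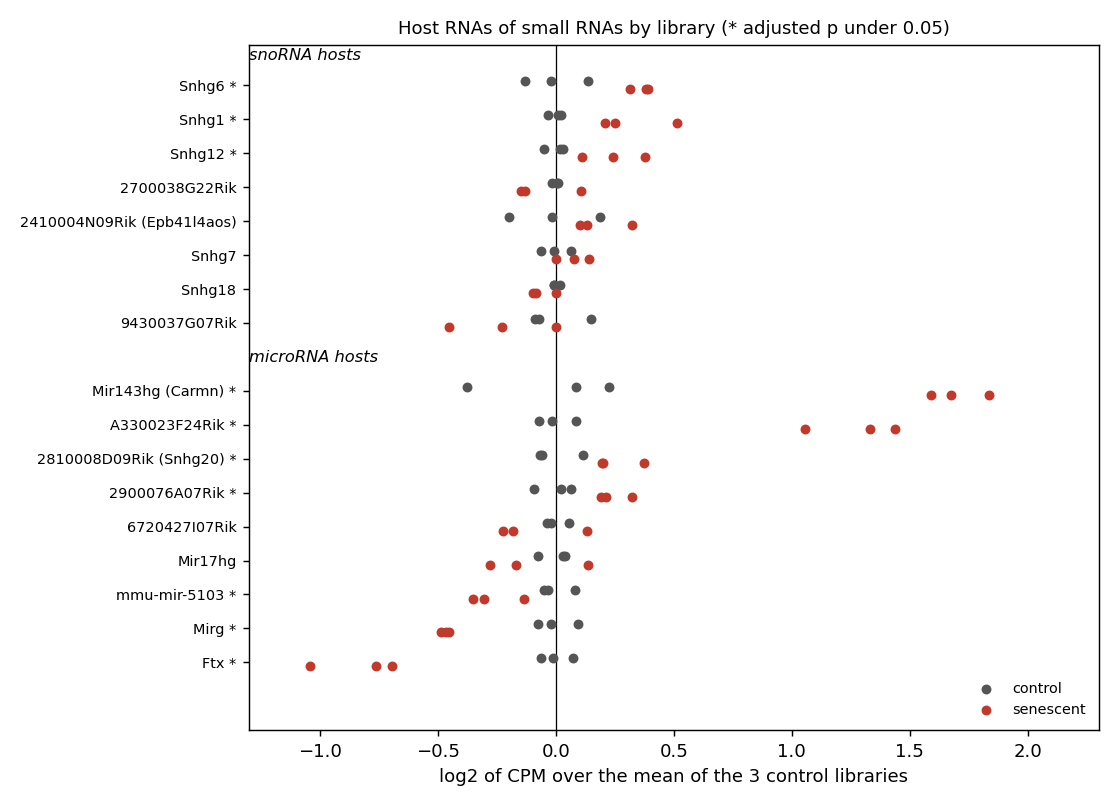
Log2 of the CPM in each library over the mean of the 3 control libraries (x axis) for 8 RNAs that host snoRNAs and 9 that are known or annotated as microRNA hosts (rows); grey points are control, red points are senescent libraries, and an asterisk marks an adjusted p under 0.05. Mir143hg and A330023F24Rik lie furthest right and Ftx furthest left in the senescent libraries.

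Among 7 listed noncoding RNAs that act in the nucleus, all tested, 5 were higher and none lower. For this list and those that follow, 36.2% of all genes tested were higher and 34.1% lower. Of the 5, Malat1 lost its call without senescent 3, Xist had 86 reads over all libraries, and Kcnq1ot1 had an adjusted p of 0.0427. Further lists hold genes of the machinery that keeps or destroys such RNAs. Of 19 tested genes of nonsense-mediated decay, the pathway that degrades many host RNAs in the cytoplasm, 3 were higher and 9 lower. Genes of the nuclear RNA exosome and its adaptors were higher in 7 and lower in 5 of 22, and genes for proteins that bind Xist were higher in 2 and lower in 6 of 15.

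Many of these RNAs start close to a protein-coding gene. In GENCODE M21, 29 of the 97 annotated RNAs had the nearest coding start within 2000 bases, and for 21 that gene ran divergently, on the opposite strand and away from the RNA. Gm17501 starts 331 bases from Ccn1, which encodes a matricellular protein made by fibroblasts. It measured 2.27, 2.34 and 2.84 CPM in control and 6.42, 6.98 and 6.95 CPM in senescent libraries (log2 fold change 1.45, SE 0.11, adjusted p = 1.39e-05), and Ccn1 rose by 1.51, from 388.1 to 1105 CPM. 2810032G03Rik and Klhl29, 188 bases apart, rose by 1.62 and 1.25. Gm26705 and Map6, a microtubule-stabilising protein, rose by 1.03 and 0.51. Gm17501, 2810032G03Rik and Gm26705 each had under 500 reads in control libraries, so their place in the set depended on their senescent level.

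Divergent pairs also fell together. AI480526 measured 15.9, 16.6 and 15.9 CPM in control and 8.16, 8.23 and 7.70 CPM in senescent libraries, a fall of 1.01 on the log2 scale. Its exons share 66.6% of their bases with other lincRNAs on the opposite strand. Setd1b, a histone H3K4 methyltransferase gene 527 bases away, fell by 0.78. C030037D09Rik, whose window holds the E-box shown above, fell by 0.89 and Msi2, an RNA-binding protein gene 132 bases away, by 0.50. Over the 21 divergent pairs, both partners were called in 10, in the same direction in 9, and the exception was 5031425E22Rik, which rose by 0.35 while Kmt2e fell by 0.22. Not every pair moved together: Snhg18 (55.4 to 60.0 CPM in all libraries) was not called beside Sema5a, which rose by 1.91 from a start 148 bases away.

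Over all 82 RNAs with a tested nearest coding gene, both were called in 40, in the same direction in 28 and in opposite directions in 12. Singly, 63.2% of the members and 70.3% of all genes tested were called, and neighbouring genes at large were not counted as pairs. The log2 fold changes correlated across these pairs with Pearson's r = 0.40 and Spearman's rho = 0.41, and across the 21 divergent pairs with 0.60 and 0.58. These are descriptions across genes measured in the same libraries, and pairs are not independent replicates. For the 54 pairs with starts beyond 2000 bases r was 0.38 and rho 0.37. The size of the change could differ widely within a pair, as Cyrano fell by 0.49 while Nusap1, a mitotic spindle gene whose start is 24001 bases away, fell by 4.80. Ptgs2os2 rose by 1.11 beside Ptgs2, the inducible cyclooxygenase, which rose by 3.33 from a start 64917 bases off, and 6330403L08Rik by 1.18 beside the growth factor gene Pdgfa (0.84). Exons of 6330403L08Rik share 14.7% of their bases with Pdgfa on the opposite strand, so reads of that pair may not be separable.

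**Figure D5:**
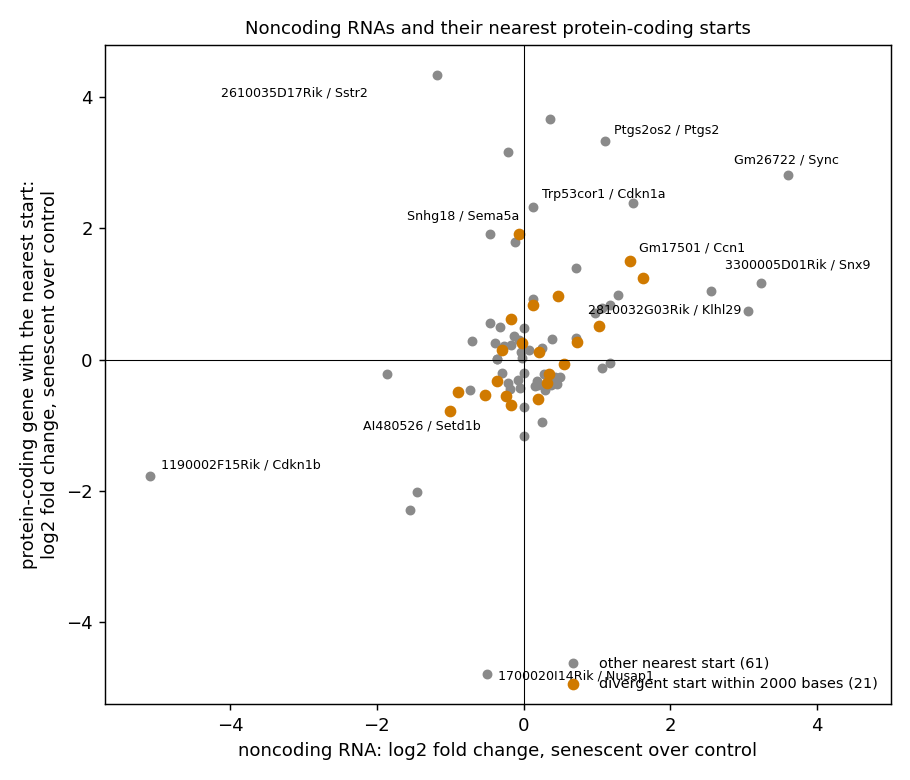
Log2 fold change of each noncoding RNA (x axis) against that of the protein-coding gene with the nearest start (y axis), 82 pairs, with the 21 divergent pairs within 2000 bases in orange. The orange points run mainly from lower left to upper right, from AI480526 with Setd1b to 2810032G03Rik with Klhl29, and Snhg18 with Sema5a stands off that line.

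Features of the transcripts showed little relation to the changes. In the count table the exonic length of the 106 RNAs ran from 430 to 20771 bases (median 2808). For the 97 with a GENCODE M21 entry, 1 of which (that of Snhg7) is there the snoRNA Snora43, the longest exon chain ran from 1 to 17 exons (median 3) and the GC content of the longest transcript from 36.6% to 60.2%. Across members, Spearman's rho with the log2 fold change was -0.16 for the length in the table, -0.16 for the mean level, -0.15 for GC content and -0.10 for exon number. The Pumilio site TGTANATA, searched on the transcribed strand, occurred in the longest transcript of 31 of 97 RNAs. Of these 10 were higher and 6 lower, and of the 66 without it 26 were higher and 19 lower, with median transcript lengths of 3319 and 1885 bases. The shares over all genes tested were 36.2% higher and 34.1% lower, and the counts with and without the site were not tested against each other. Exons of 22 RNAs overlapped another gene on the opposite strand over more than 5% of their bases.

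Several RNAs gave values that barely differed between the states. Beside Gm2115, the smallest changes among uncalled members were those of 2310015A10Rik (7.38 ± 0.64 and 7.40 ± 0.578 CPM, log2 fold change 0.00, SE 0.10) and 5430416N02Rik (11.9 ± 0.806 and 12.0 ± 0.419 CPM, log2 fold change 0.01, SE 0.08). In each of them the values of the groups were interleaved, and the direction of so small a difference turned with single libraries.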

How the data were processed

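The authors aligned paired-end poly(A)-selected RNA-seq reads of 6 libraries to mm10 with STAR in the MAPRSeq workflow and deposited raw counts per gene, made with Subread. The annotation release and strand setting are not given in the sources used here. Counts were tested on the whole table with edgeR 4.0.16 (TMM, filterByExpr, robust quasi-likelihood, group as the only term, Benjamini-Hochberg over 17589 genes). Levels are TMM-scaled CPM. The fit was tested on simulated data. The members and gene lists were chosen with earlier results of these data known, so the counts over members are descriptions and no list test was run. Named RNAs were the 8 highest by level, the 8 largest called rises and 8 largest falls without overlap and their coding neighbours, all in a role list, 3 on each side of the count limit and the 3 smallest uncalled changes. Other members were named after their values were seen, for a divergent start, a hosted small RNA, a motif or a neighbour. Annotation was GENCODE M21 (GRCm38, the build of mm10), and sequences were RefSeq GRCm38.p6. Replicate numbers did not pair libraries (correlations of deviations -0.37, 0.29 and -0.26). No pair of libraries was a duplicate. Alternatives were other scalings and filters, DESeq2 1.42.0, a replicate block and leaving out libraries. Restricting the set to 500 reads in each group and leaving out control 1 with senescent 3 were chosen after seeing the data.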

Additional observations from a re-analysis of the deposited data

How the results depend on the processing

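Of all 67 called RNAs, 49 kept their call and direction under all 13 alternatives, and 22 of the 39 uncalled RNAs stayed uncalled in every one. Of the 45 called RNAs named here, 36 kept their call and direction and 0 changed direction. Restricting the set to the 80 RNAs with at least 500 reads in each group gave 21 higher and 6 higher at the threshold of the study's methods, since 26 RNAs left it. Among all genes with as many reads in each group 31.2% were higher, and the share past that threshold was not counted. The median log2 fold change of 0.00 became 0.0526 with at least 10 counts in every library, 0.0814 with library size alone, -0.0845 in the set with 500 reads in each group and -0.0796 without control 1 and senescent 3, and ran from -0.0719 to 0.0456 when single libraries were left out. Replicate numbers did not pair the libraries, and with them as a block 33 RNAs were higher and 25 lower. The share of all genes called in that fit was not counted. Uncalled changes near 0 turned sign: with no filter beyond 1 count, 2310015A10Rik (-0.00555), 5430416N02Rik (-0.00515) and Gm2115 (-0.00443); with library size alone, Snhg18 (0.0188), 2700038G22Rik (0.0275) and 2810414N06Rik (0.0533); and with 10 counts in every library, 2810414N06Rik (0.0240). With single libraries left out, these also turned: 2310015A10Rik ran from -0.0373 to 0.0770, 2810414N06Rik from -0.0628 to 0.0201, 5430416N02Rik from -0.0519 to 0.0485, Gm2115 from -0.0155 to 0.0199 and Gm20554 from -0.435 to 0.00341. The depth behind most of these RNAs is modest, with a median total of 2276.5 reads over the 6 libraries.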
